A study of Danio rerio with 15 samples.

Results

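Liver expression in zebrafish that received 0.1 Gy of γ-rays as embryos, 24 hours post fertilization, was compared with that in non-irradiated control fish when both were 16 weeks old. The comparison takes 6 of the 15 arrays of the series, the 3 arrays of the embryo 0.1 Gy group and the 3 of the control group, chosen by their titles and dose entries. It asks which liver transcripts still differed between these groups after the irradiated embryos had grown to adults. All fish were males of the AB background, and the source was cesium. RNA on an array came from 2 males whose livers were combined, so a group holds 6 males. The embryos came from 3 breeding pairs, were kept together until 24 hours, and were then divided into cohorts, of which the controls and each embryo group were 1 each. Irradiation and anything else that set the cohorts apart cannot be told apart here, and errors and p values measure the spread between pools of the same cohort. An embryo 1.0 Gy group, treated alike at the higher dose, and an adult 0.1 Gy group, irradiated 4 hours before dissection and drawn from the cohort of the controls, serve as further comparisons.

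The liver makes most plasma proteins, and these pass through the endoplasmic reticulum, where chaperones such as hspa5 (BiP) and calreticulin and the protein disulfide isomerases fold them. When unfolded protein builds up, the unfolded protein response raises the transcripts of these chaperones. The same cells make cholesterol and fatty acids when fed, and release glucose and raise igfbp1 and klf9 when insulin is low or glucocorticoid is high. Ionizing radiation breaks DNA, and within hours the transcription factor p53 raises a set of targets for repair, growth arrest and cell death.

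For 4 of the 15 arrays the source name in the record disagrees with the title. Control replicates 2 and 3 are there described as irradiated adults, and adult 0.1 Gy replicates 1 and 2 as not irradiated. Groups were taken from the titles, doses and timing. The main results are given with all 3 controls and also without control replicates 2 and 3, where control replicate 1 stands alone and is assumed to vary like the other groups. Distances between arrays were taken as the root mean square of the log2 differences over the probe sets tested. Control replicates 2 and 3 were 0.310 apart and lay 0.467 and 0.509 from control replicate 1, 0.532 to 0.624 from the embryo 0.1 Gy arrays, and 0.702 to 0.758 from the adult 0.1 Gy arrays. The 3 embryo 0.1 Gy arrays were 0.335 to 0.393 apart, and replicate 1 held 39.4% of their spread. The fatty acid carrier fabp10a, a liver marker, averaged 15.03 in embryo 0.1 Gy arrays and 15.04 in controls on the log2 scale, at the upper end of the range of the arrays, which is read here as its presence and not as its stability. Of the 8 hepatocyte markers tested 0 passed in limma, or 0 at an unadjusted p under 0.05. The array carries probe sets for the 3' and 5' ends of gapdh, and the difference between them serves as a sign of RNA and labeling quality. The 3' minus 5' difference was -0.20, -0.14 and -0.02 in the embryo 0.1 Gy arrays and 0.15, 0.34 and 0.17 in the controls, so the groups did not overlap, and its part in the results was not tested.

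Of 15502 zebrafish probe sets, the 8634 whose interquartile range over the 15 arrays reached 0.2 entered the limma fit. A probe set passed where the F-test over the 5 groups and the difference itself both had a Benjamini-Hochberg adjusted p under 0.05. Between embryo 0.1 Gy and control livers 1474 probe sets passed (17.1%), of which 574 were higher (6.65%) and 900 lower (10.4%) in the irradiated fish. At an unadjusted p under 0.05 there were 2599. The differences ran from -3.95 to 4.06 on the log2 scale, with a median of 0.66 among those higher and -0.74 among those lower, and 0.03 over all probe sets tested. At least 2-fold changes were found in 132 probe sets that rose and 229 that fell. All 3 embryo arrays lay apart from all 3 controls in 2867 probe sets (33.2%) and in 1408 of the 1474 that passed. Counted as genes, with the brightest tested probe set of each, 399 of 5626 rose (7.09%) and 621 fell (11%). Without control replicates 2 and 3, 282 probe sets passed (3.27%), and 221 of the 1474 kept their call and direction. By gene, 70 then rose (1.24%) and 122 fell (2.17%). Counts of list members without control replicates 2 and 3, given below, are to be read against these lower shares of all genes. Leaving out 1 array at a time, 708 of the 1474 kept their call in all 15 fits. With control replicate 2 left out 835 passed, without control replicate 3 916, without embryo 0.1 Gy replicate 3 953, and without control replicate 1 1803. The plot of difference against adjusted p shows the probe sets tested.

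**Figure D1:**
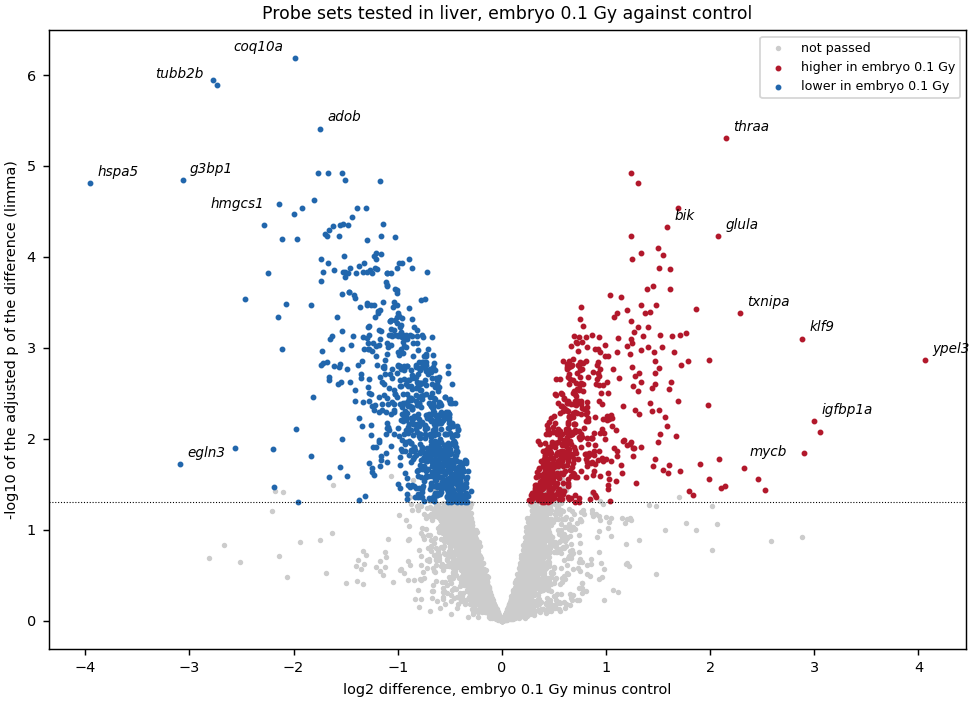
Log2 difference, embryo 0.1 Gy minus control (horizontal), against −log10 of its adjusted p from limma (vertical), for the 8634 probe sets tested, each a point, with the dotted line at an adjusted p of 0.05. The probe sets lower in embryo 0.1 Gy (900, blue) outnumber those higher (574, red), and hspa5 and ypel3 lie at the 2 ends at -3.95 and 4.06.

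The single largest decrease was that of hspa5, the most abundant chaperone of the endoplasmic reticulum. On the log2 scale hspa5 stood at 6.95, 7.71 and 7.2 in embryo 0.1 Gy livers, against 11.20, 11.41 and 11.10 in controls. The 2 groups were thus more than 3 log2 units apart with no overlap, and the mean was 15.5-fold lower in the irradiated fish (log2 difference -3.95 ± 0.35 SE, adjusted p = 1.53e-05). Against control replicate 1 alone it was -3.92 (adjusted p = 0.00149). The largest increase was that of ypel3, a member of the Yippee family that is linked to growth arrest in human cells. Its values were 9.30, 10.28 and 10.22 in embryo 0.1 Gy livers and 7.89, 4.14 and 5.59 in controls (4.06 ± 0.69, adjusted p = 0.00137). Here the controls themselves spread widely, and against control replicate 1 alone the difference was 2.04 (adjusted p = 0.0708). Of the 20 largest increases and 20 largest decreases named here, 32 kept their call in all 15 fits and 25 had one without control replicates 2 and 3.

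**Figure D2:**
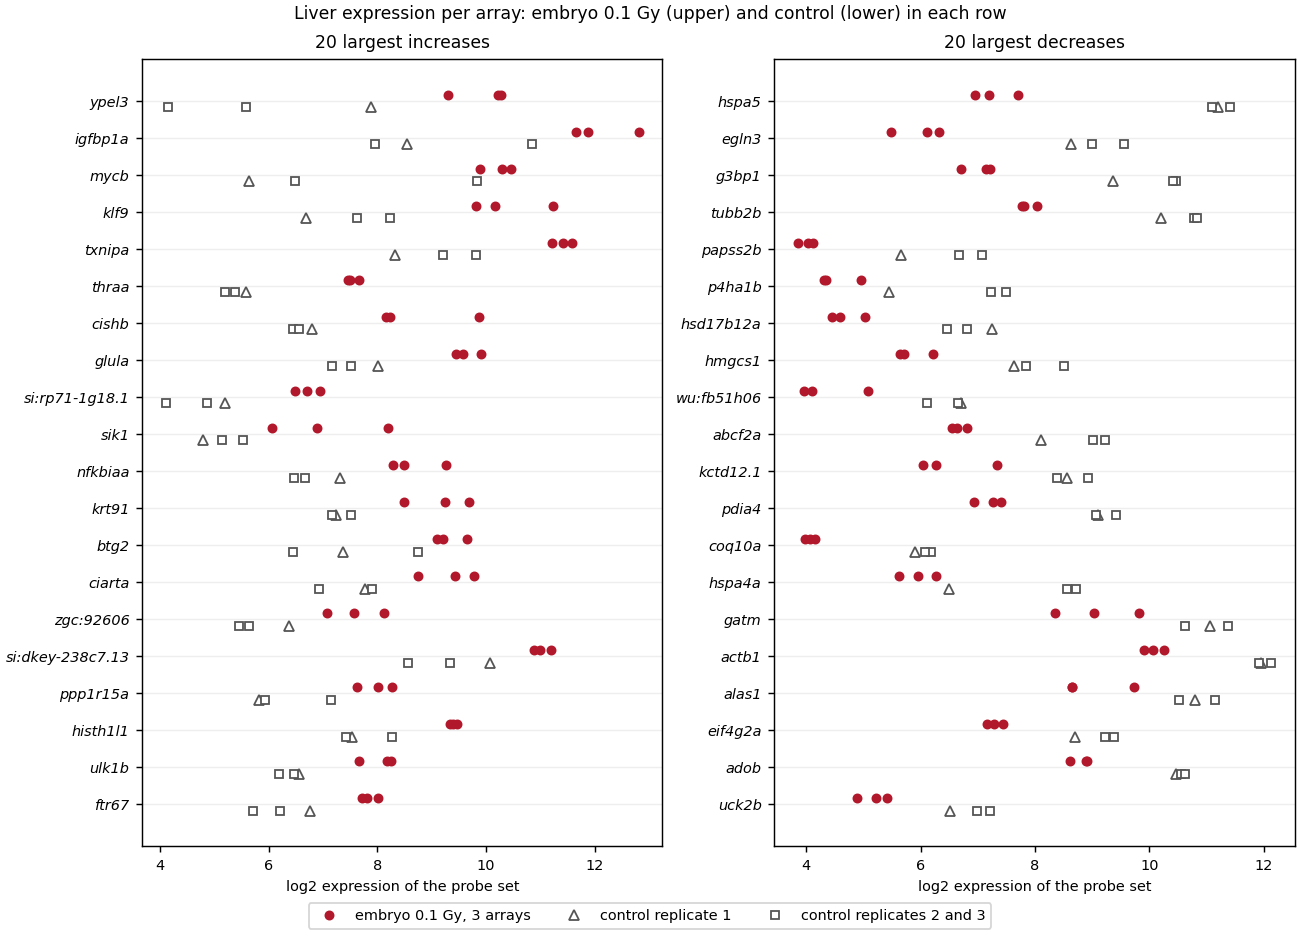
Log2 expression (horizontal) of the 20 genes with the largest increase (left panel) and decrease (right panel), 1 point per array, with embryo 0.1 Gy above control in each row. By the rule that chose them no gene's groups overlap, and for mycb the highest control (9.84) comes within 0.1 of the lowest embryo array (9.90).

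The list to which hspa5 belongs holds chaperones of the endoplasmic reticulum and genes of the unfolded protein response. Of its 26 tested genes 12 were lower (46.2%, against 11% of all genes), 1 was higher and 13 did not pass, with a median difference of -0.53, against 0.02 over all genes tested. The protein disulfide isomerase pdia4 stood at 6.93, 7.26 and 7.40 in embryo 0.1 Gy livers and 9.09, 9.42 and 9.07 in controls (-2.0 ± 0.20, adjusted p = 3.39e-05). It was about as far below control replicate 1 (-1.89, adjusted p = 0.00327). Other members depended more on which control they were set against. For manf, a secreted factor of the stressed endoplasmic reticulum, the values were 7.24, 7.31 and 7.13 in the irradiated fish and 7.94, 9.61 and 9.34 in controls (-1.74 ± 0.30, adjusted p = 0.00153), and its second probe set gave -2.24. Control replicate 1 lay closest to the embryo arrays there, at a difference of -0.71 (adjusted p = 0.0514). The calreticulin calr3b read 3.18, 3.76 and 3.85 against 4.44, 5.87 and 5.65 in controls (-1.72 ± 0.28, adjusted p = 0.00109), or -0.84 from control replicate 1 (adjusted p = 0.0779). Against control replicate 1 alone, 3 of the 26 were lower and 1 was higher. The member that rose was ppp1r15a, a phosphatase subunit that lets translation resume after stress, at 8.02, 7.62 and 8.27 in embryo 0.1 Gy livers and 5.83, 5.93 and 7.15 in controls (1.67 ± 0.39, adjusted p = 0.00938). Each of its 3 other probe sets passed too, with differences of 1.27 to 1.97.

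Proteins enter the endoplasmic reticulum through a channel and are glycosylated there. Of 40 tested genes for this translocation, glycosylation and vesicle transport, 10 were lower (25%, against 11% of all genes) and 0 higher, with a median of -0.32, and without control replicates 2 and 3 the count was 0 (5 at an unadjusted p under 0.05) and the median -0.01. Examples are tram1, a protein of the channel (-1.58 ± 0.30, adjusted p = 0.00247), the mannosyltransferase alg2 (-1.46 ± 0.27, adjusted p = 0.00239), srp9 of the signal recognition particle (-1.28 ± 0.21, adjusted p = 0.00102) and the channel subunit sec61a1b (-1.25 ± 0.29, adjusted p = 0.00899). In tram1 the embryo arrays stood at 8.43, 8.81 and 8.51 and the controls at 9.25, 10.67 and 10.57. Control replicate 1 was the lowest of the 3 controls in all 4 of these genes. For sec61a1b the embryo arrays read 7.26, 7.04 and 7.0, against 7.40 in control replicate 1 and 8.83 in both other controls, and the call was lost without control replicate 2 or 3 (differences of -1.73 to -1.01 over the 15 fits).

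Cytosolic chaperones moved in both directions. Of 35 tested genes for cytosolic and mitochondrial chaperones, 8 were lower (22.9%, against 11% of all genes) and 3 higher (8.57%, against 7.09%). The Hsp110 family member hspa4a stood at 6.27, 5.96 and 5.62 in embryo 0.1 Gy livers and 6.50, 8.72 and 8.55 in controls (-1.97 ± 0.45, adjusted p = 0.00783), so that only control replicates 2 and 3 were far above the irradiated fish. The Hsp90 activator ahsa1b (-1.53 ± 0.19, adjusted p = 0.000146), the co-chaperone dnajb1b (-1.34 ± 0.27, adjusted p = 0.00391) and the mitochondrial chaperonin hspd1 (-1.03 ± 0.20, adjusted p = 0.00289) were also lower. In the proteasome list 4 of 29 were lower, a share of 13.8% that lies near the 11% of all genes, and 0 higher, among them psmd12 (-1.01 ± 0.13, adjusted p = 0.000249) and vcp, a segregase that pulls proteins out of complexes (-0.75 ± 0.13, adjusted p = 0.00122), and a second probe set of psmd12 did not pass (-0.48, adjusted p = 0.113). Among 47 ubiquitin enzymes 13 were lower (27.7%) and 3 higher (6.38%), with the deubiquitinase usp33 at -1.2 ± 0.21 (adjusted p = 0.00153) and the activating enzyme uba1 at -0.90 ± 0.18 (adjusted p = 0.00387). Without control replicates 2 and 3, 1 gene was lower in each of these 3 lists and 0 were higher.

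Of 79 tested genes for splicing and RNA-binding proteins, the list with the most genes tested, 29 were lower (36.7%, against 11% of all genes) and 0 higher, with a median of -0.34. Leading them was g3bp1, which nucleates stress granules, at 7.21, 7.14 and 6.70 in embryo 0.1 Gy livers and 9.36, 10.47 and 10.42 in controls. The groups were over 2 log2 units apart, an 8.36-fold decrease (-3.06 ± 0.27, adjusted p = 1.44e-05), and the difference held against control replicate 1 alone (-2.35, adjusted p = 0.000719). Splicing proteins sfpq (-1.22 ± 0.25, adjusted p = 0.0043), syncripl (-1.22 ± 0.17, adjusted p = 0.000342) and hnrnpa0a (-1.22 ± 0.15, adjusted p = 0.000131) fell less. Of the other probe sets of hnrnpa0a, 1 was lower by 1.74 and 1 did not pass (-0.30, adjusted p = 0.333). Without control replicates 2 and 3 the median of the 79 was -0.15, against 0.01 over all genes tested.

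Among translation factors and tRNA synthetases 10 of 53 were lower (18.9%, against 11% of all genes) and 2 higher, with a median of -0.15, and without control replicates 2 and 3 2 were lower and 0 higher, with a median of 0.02. The scaffold eif4g2a, which serves translation without a cap-binding factor, read 7.44, 7.29 and 7.16 in embryo 0.1 Gy livers and 8.70, 9.38 and 9.23 in controls (-1.81 ± 0.17, adjusted p = 2.35e-05, and -1.40 from control replicate 1, adjusted p = 0.00174). The cap-binding eif4e1c (-1.24 ± 0.20, adjusted p = 0.000894) and the helicase eif4a1a (-1.07 ± 0.16, adjusted p = 0.000494) were lower, and eif4ebp3l, of the family that restrains cap-binding proteins, was higher (1.06 ± 0.23, adjusted p = 0.00589). The ABC family member abcf2a was 6.54, 6.64 and 6.82 in embryo 0.1 Gy livers and 8.11, 9.22 and 9.01 in controls (-2.11 ± 0.23, adjusted p = 6.37e-05). Genes for ribosome biogenesis and the nucleolus went both ways, with 8 of 53 higher and 8 lower (15.1% each, against 7.09% and 11% of all genes), or 4 higher and 1 lower without control replicates 2 and 3. The pre-ribosome factor sdad1 rose (1.45 ± 0.19, adjusted p = 0.000207), the pyrimidine salvage kinase uck2b fell (-1.74 ± 0.22, adjusted p = 0.000182), and the nucleolar nolc1 had 6.02, 5.50 and 5.61 in embryo arrays against 5.93, 7.27 and 7.28 in controls, which overlap. Its call (-1.12 ± 0.28, adjusted p = 0.0142) was lost without control replicate 2 or 3 and without embryo 0.1 Gy replicate 2 or 3 (differences of -1.56 to -0.89 over the 15 fits).

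In the list of tubulins, actins and other structural proteins of the cytoskeleton, 11 of 38 tested were lower (28.9%, against 11% of all genes) and 0 higher. The list does not hold the keratin krt91, which was higher (1.83 ± 0.58, adjusted p = 0.042) and is counted below with biliary markers. The β-tubulin tubb2b stood at 8.03, 7.81 and 7.78 in embryo 0.1 Gy livers and 10.21, 10.78 and 10.84 in controls, a gap of over 2 log2 units between the nearest arrays (-2.74 ± 0.18, adjusted p = 1.29e-06). Its second probe set gave -2.77, and control replicate 1 alone gave -2.34 (adjusted p = 8.7e-05). The β-actin actb1 was 10.07, 9.91 and 10.26 in embryo 0.1 Gy livers and 11.95, 12.13 and 11.92 in controls (-1.92 ± 0.18, adjusted p = 2.89e-05), with the 3 controls close together. The α-tubulin tuba5 (-1.16 ± 0.13, adjusted p = 9.23e-05) and the nuclear lamin lmnb1 (-1.37 ± 0.16, adjusted p = 0.000125) were lower too. Of the 38, 5 were lower without control replicates 2 and 3.

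Of the 9 genes tested for cholesterol synthesis and uptake 4 fell (44.4%, against 11% of all genes), 0 rose and 5 did not pass, with a median of -0.74. The enzyme that makes hydroxymethylglutaryl-CoA, hmgcs1, read 6.22, 5.64 and 5.70 in embryo 0.1 Gy livers and 7.64, 7.84 and 8.51 in controls (-2.14 ± 0.20, adjusted p = 2.62e-05, and -1.78 from control replicate 1, adjusted p = 0.000807). The thiolase acat2 was 8.98, 7.79 and 7.82 against 9.23, 10.19 and 10.14 in controls (-1.66 ± 0.31, adjusted p = 0.00227), where embryo replicate 1 and control replicate 1 lay close together. The prenyltransferase ggps1 (-1.02 ± 0.16, adjusted p = 0.000719) and nsdhl, which demethylates sterols (-0.74 ± 0.18, adjusted p = 0.00983), completed the 4, and 2 of them had a call without control replicates 2 and 3. In fatty acid and triglyceride synthesis 5 of 16 were lower (31.2%) and 1 higher, or 1 of each without control replicates 2 and 3. The reductase hsd17b12a, which takes part in the elongation of long-chain fatty acids, stood at 5.03, 4.60 and 4.45 in embryo 0.1 Gy livers and 7.25, 6.47 and 6.81 in controls (-2.15 ± 0.31, adjusted p = 0.000455). The phosphatidate phosphatase lpin1a was the member that rose (1.18 ± 0.28, adjusted p = 0.0104). The call of mid1ip1b, a regulator of lipogenesis (-1.37 ± 0.45, adjusted p = 0.047), was lost in 13 of the 15 fits (differences of -2.05 to -0.98), and its other probe set gave -0.11.

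Among genes of fasting and of the insulin-like growth factor axis, the binding proteins igfbp1a and igfbp1b, which restrain these growth factors, were higher. For igfbp1a the arrays read 11.65, 11.88 and 12.81 in embryo 0.1 Gy livers and 8.55, 7.95 and 10.85 in controls, a 7.99-fold increase (3.00 ± 0.66, adjusted p = 0.00643), with a second probe set at 3.05. Against control replicate 1 alone it was 3.56 (adjusted p = 0.0154). The values of igfbp1b were 9.94, 8.17 and 8.09 in the irradiated fish and 6.34, 7.09 and 7.98 in controls (1.59 ± 0.45, adjusted p = 0.0238), so its groups nearly touched, and the call was lost on leaving out embryo 0.1 Gy replicate 1 or either of control replicates 1 and 2 (differences of 0.99 to 2.02 over the 15 fits). The kinase pdk2b, which switches off pyruvate dehydrogenase, rose (1.28 ± 0.38, adjusted p = 0.0303), and angptl4, which inhibits lipoprotein lipase, fell (-0.97 ± 0.21, adjusted p = 0.00627). In all, 4 of 23 genes of fatty acid oxidation and fasting were higher (17.4%, against 7.09% of all genes) and 2 lower, with a median of 0.005. In the growth hormone and insulin-like growth factor axis 4 of 17 genes were higher (23.5%) and 0 lower, with a median of 0.08. The median over all genes tested was 0.02. Both igfbp1a and igfbp1b are counted in each list. Without control replicates 2 and 3, 3 were higher in each of these lists and 0 lower. The call of pdk2b was lost in 4 of the 15 fits, those without control replicate 1 or 3 or embryo 0.1 Gy replicate 2 or 3 (differences of 0.82 to 1.73 over the 15). Thioredoxin-interacting protein txnipa, which restrains glucose uptake, stood at 11.22, 11.41 and 11.58 in embryo 0.1 Gy livers and 8.32, 9.21 and 9.82 in controls (2.29 ± 0.32, adjusted p = 0.000416, and 3.09 from control replicate 1, adjusted p = 0.000364).

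Glycolysis and glycogen genes had 6 of 29 lower (20.7%) and 2 higher, pyruvate dehydrogenase and the citric acid cycle 4 of 21 lower (19%) and 1 higher, and the respiratory chain and ATP synthase 3 of 34 lower (8.82%) and 0 higher, against 11% of all genes lower. In each of these 3 lists 1 gene was lower without control replicates 2 and 3. Members with a decrease were dlat, a core subunit of pyruvate dehydrogenase (-1.16 ± 0.12, adjusted p = 5.86e-05), the isocitrate dehydrogenase idh1 (-1.05 ± 0.21, adjusted p = 0.00394) and cytochrome c cycsb (-1.41 ± 0.19, adjusted p = 0.000283). Of 11 genes of haem and iron 2 were lower (18.2%), both enzymes of haem synthesis, and 0 higher. The median of the 11 was 0.15, and 7 had differences above 0. The rate-limiting alas1 read 9.74, 8.64 and 8.65 in embryo 0.1 Gy livers and 10.80, 10.52 and 11.14 in controls (-1.81 ± 0.36, adjusted p = 0.00348), and cpox, a later step, 7.79, 7.26 and 7.17 against 8.72, 9.21 and 9.30 in controls (-1.67 ± 0.20, adjusted p = 0.000118). Several single enzymes were among the largest decreases. The synthase papss2b, which makes the sulfate donor, stood at 3.85, 4.12 and 4.04 in embryo 0.1 Gy livers and 5.66, 7.08 and 6.68 in controls (-2.47 ± 0.33, adjusted p = 0.000293). The dioxygenase adob was 8.89, 8.61 and 8.91 in irradiated fish and 10.47, 10.56 and 10.63 in controls (-1.75 ± 0.13, adjusted p = 3.88e-06), and coq10a, a coenzyme Q binding protein, 4.16, 4.07 and 3.98 against 5.91, 6.19 and 6.08 in controls (-1.99 ± 0.11, adjusted p = 6.56e-07). Both had controls within 0.3 of each other, and both kept their call without control replicates 2 and 3. The call of gatm, the first enzyme of creatine synthesis (-1.96 ± 0.64, adjusted p = 0.0491), was lost in 11 of the 15 fits (differences of -2.33 to -1.60).

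Hormone-responsive genes were among the largest increases. Of 7 tested genes of the thyroid hormone axis 2 were higher (28.6%, against 7.09% of all genes), klf9 and thraa. In that list 1 was lower (14.3%, against 11%), and the median was -0.04. The glucocorticoid and thyroid hormone target klf9 stood at 9.81, 11.23 and 10.17 in embryo 0.1 Gy livers and 6.70, 8.24 and 7.63 in controls, 7.38-fold higher (2.88 ± 0.45, adjusted p = 0.000793). The thyroid hormone receptor thraa varied little within groups, at 7.47, 7.51 and 7.65 in irradiated fish and 5.59, 5.20 and 5.38 in controls (2.15 ± 0.16, adjusted p = 4.91e-06). Glutamine synthetase glula, which takes up ammonia, was 9.58, 9.92 and 9.44 in embryo 0.1 Gy livers and 8.01, 7.16 and 7.52 in controls (2.08 ± 0.22, adjusted p = 5.86e-05). All 3 kept their call without control replicates 2 and 3. In the list of glucocorticoid response 5 of 18 were higher (27.8%, against 7.09% of all genes) and 1 lower, with a median of 0.40, and without these controls 4 were higher and the median was 0.61. The others that rose include hsd11b2, which inactivates cortisol (1.16 ± 0.28, adjusted p = 0.0107, lost without embryo 0.1 Gy replicate 2), and the member that fell was foxo3b, at 7.22, 7.54 and 7.46 in irradiated fish and 7.94, 9.09 and 8.68 in controls (-1.16 ± 0.30, adjusted p = 0.017). Its call was lost without control replicate 2 or 3 or embryo 0.1 Gy replicate 1 (differences of -1.48 to -0.90).

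Of 24 genes of the circadian clock tested 6 rose (25%, against 7.09% of all genes), 0 fell and 18 did not pass, with a median of 0.10, and without control replicates 2 and 3 the count was 0 (5 at an unadjusted p under 0.05). The repressor ciarta stood at 9.79, 8.75 and 9.44 in embryo 0.1 Gy livers and 7.77, 6.93 and 7.90 in controls (1.79 ± 0.31, adjusted p = 0.00141, and 1.55 from control replicate 1, adjusted p = 0.0527). The nuclear receptor nr1d2b was 8.44, 8.69 and 8.98 in irradiated fish and 7.85, 7.57 and 7.34 in controls (1.12 ± 0.17, adjusted p = 0.000771), nfil3-6 rose by 1.06 ± 0.24 (adjusted p = 0.0073) and cry-dash by 1.1 ± 0.28 (adjusted p = 0.0137). The call of cry-dash was lost without control replicate 2 or embryo 0.1 Gy replicate 3 (0.87 to 1.35). For each of these 3 genes a second probe set with lower mean did not pass, with differences of 0.25 to 0.33. The time of day at dissection is not given in the sources used here.

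In the list of cytokine, JAK-STAT and NF-κB signaling 6 of 15 were higher (40%, against 7.09% of all genes), 0 lower and 9 did not pass, with a median of 0.37, and without control replicates 2 and 3 there were 3. The genes cisha, cishb, nfkbiaa and nfkb2 are in a list of long-term genes that the study chose from these same arrays. Of that list 18 genes were matched and tested here, both paralogs of gnai2 among them, and 15 passed. The list also holds nr1d2b, egln3, p4ha1, hsd17b12a, alg2, eif4g2a and dlat, which fall in other lists of this report. The direction of all these genes therefore adds no independent evidence. The NF-κB inhibitor nfkbiaa was 9.27, 8.48 and 8.28 in embryo 0.1 Gy livers and 7.30, 6.46 and 6.68 in controls (1.86 ± 0.26, adjusted p = 0.000378, and 1.37 from control replicate 1, adjusted p = 0.0475). The NF-κB subunit nfkb2 was 6.88, 6.02 and 6.11 against 5.37, 4.99 and 5.05 in controls (1.2 ± 0.19, adjusted p = 0.000959). Suppressors of cytokine signaling spread widely among the embryo arrays. For cishb the values were 8.15, 9.87 and 8.23 in irradiated fish and 6.80, 6.45 and 6.57 in controls (2.14 ± 0.64, adjusted p = 0.0328), for its paralog cisha 7.37, 10.91 and 9.79 against 6.57, 5.98 and 7.95 (2.52 ± 0.78, adjusted p = 0.0369), and for socs1a 7.94, 10.82 and 10.78 against 6.69, 6.57 and 8.90 (2.46 ± 0.71, adjusted p = 0.0276). Embryo replicate 1 was the lowest of the irradiated arrays in all 3 genes, and in cisha and socs1a it lay below control replicate 3. The call of cishb was lost in 12 of the 15 fits (differences of 1.58 to 2.44), that of cisha in 7 (1.75 to 3.52) and that of socs1a in 4 (1.97 to 3.41). Leaving out control replicate 1 or 2 or embryo 0.1 Gy replicate 2 or 3 ended each of these 3 calls.

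Immediate early genes answer within minutes to growth factors and stress, and 6 of 37 of them were higher (16.2%, against 7.09% of all genes) and 2 lower (5.41%, against 11%). The median was 0.42, and 0.44 without control replicates 2 and 3. Among the 6, ppp1r15a is also counted with the endoplasmic reticulum chaperones, and btg2 with the p53 targets below. The Myc gene mycb stood at 9.90, 10.29 and 10.46 in embryo 0.1 Gy livers and 5.63, 6.48 and 9.84 in controls (2.90 ± 0.74, adjusted p = 0.0143). Control replicate 3 was nearly as high as the irradiated fish, and the call was lost without control replicate 2 or embryo 0.1 Gy replicate 3 (differences of 2.06 to 4.16 over the 15 fits). The kinase pim1 was much less variable, at 7.25, 7.31 and 7.30 in irradiated fish and 5.67, 5.57 and 6.13 in controls (1.5 ± 0.17, adjusted p = 7.99e-05), as was the survival factor mcl1a, at 10.03, 10.30 and 10.18 against 9.17, 8.73 and 8.88 in controls (1.24 ± 0.13, adjusted p = 5.86e-05). The salt-inducible kinase sik1, which is not in this list, was 6.07, 6.88 and 8.2 in embryo 0.1 Gy livers and 4.79, 5.13 and 5.52 in controls (1.90 ± 0.51, adjusted p = 0.0189). Its call was lost without control replicate 2 or embryo 0.1 Gy replicate 3 (differences of 1.33 to 2.39 over the 15 fits).

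Of 16 tested p53 targets 5 rose (31.2%, against 7.09% of all genes), 0 fell and 11 did not pass, with a median of 0.32, and without control replicates 2 and 3 the count was 1, again with a median of 0.32. The initiator caspase casp9 stood at 6.12, 6.89 and 6.40 in embryo 0.1 Gy livers and 5.14, 5.09 and 5.12 in controls (1.35 ± 0.21, adjusted p = 0.000742, and 1.33 from control replicate 1, adjusted p = 0.0406). The damage sensor ddb2 was 7.61, 7.95 and 8.13 in irradiated fish and 7.33, 6.68 and 6.77 in controls (0.97 ± 0.18, adjusted p = 0.00254), and tp53inp1 rose by 1.2 ± 0.29 (adjusted p = 0.0116, lost without control replicate 2, with differences of 0.90 to 1.46 over the 15 fits). The antiproliferative btg2 read 9.20, 9.10 and 9.66 against 7.38, 6.45 and 8.76 in controls (1.79 ± 0.55, adjusted p = 0.0372), a call lost on leaving out any embryo 0.1 Gy array or control replicate 1 or 2 (differences of 1.25 to 2.41), and its second, dim probe set gave 0.37 (adjusted p = 0.0774). In the DNA repair list 0 of 17 genes tested passed in either direction in limma and 2 had an unadjusted p under 0.05, with differences of -0.51 to 0.32. That list does not hold ddb2, which is counted here with the p53 targets. Among 26 regulators of apoptosis 8 were higher (30.8%) and 4 lower (15.4%), or 5 and 1 without control replicates 2 and 3. The highest of these was bik, a BH3-only protein that promotes cell death, at 6.08, 6.28 and 6.43 in embryo 0.1 Gy livers and 4.93, 4.51 and 4.59 in controls (1.59 ± 0.17, adjusted p = 4.66e-05). In the cell cycle list 3 of 31 were higher (9.68%) and 1 lower (3.23%), shares near and below the 7.09% and 11% of all genes, with the cyclin ccng2 (1.25 ± 0.22, adjusted p = 0.00162) and the inhibitor cdkn1bb (0.89 ± 0.20, adjusted p = 0.00861) up and the cyclin ccnd1 down (-0.86 ± 0.19, adjusted p = 0.00689).

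Hypoxia-inducible factors are marked for destruction by prolyl hydroxylases when oxygen is present. Of 24 genes of this system 4 rose (16.7%, against 7.09% of all genes) and 7 fell (29.2%, against 11%), but without control replicates 2 and 3 3 rose and 1 fell. Among the 4 that rose were igfbp1a and igfbp1b, which are also counted above in the lists of fasting and of the insulin-like growth factor axis. The hydroxylase egln3 stood at 6.11, 5.48 and 6.33 in embryo 0.1 Gy livers and 8.63, 9.0 and 9.55 in controls, 8.51-fold lower (-3.09 ± 0.83, adjusted p = 0.0189). Although its groups lay over 2 log2 units apart, its call was lost in 8 of the 15 fits, among them those without control replicate 2 or 3 or any embryo 0.1 Gy array (differences of -3.30 to -2.84). The collagen hydroxylase p4ha1b was 4.35, 4.32 and 4.96 in irradiated fish and 5.45, 7.49 and 7.24 in controls (-2.19 ± 0.66, adjusted p = 0.0339), or -0.91 from control replicate 1 (adjusted p = 0.718). Its call was lost in 7 fits (-2.82 to -1.80). The glycolytic activator pfkfb3 fell, a call lost without control replicate 1 or 2 or embryo 0.1 Gy replicate 3 (-0.96 ± 0.24, adjusted p = 0.0137), and a factor annotated hif1al, an older name of which is Hif-3alpha, rose, at 6.45, 6.78 and 6.17 against 4.83, 5.71 and 4.46 in controls (1.47 ± 0.28, adjusted p = 0.00251).

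Genes of autophagy and the lysosome were higher in 6 of 37 (16.2%, against 7.09% of all genes) and lower in 0, and 0 passed without control replicates 2 and 3 (3 at an unadjusted p under 0.05). The initiating kinase ulk1b stood at 7.65, 8.26 and 8.18 in embryo 0.1 Gy livers and 6.57, 6.46 and 6.18 in controls (1.63 ± 0.30, adjusted p = 0.00235). The autophagosome protein map1lc3a rose by 0.94 ± 0.22 (adjusted p = 0.00855), and zgc:92606, an older name of which is gabarapl, was 7.07, 8.13 and 7.57 against 6.38, 5.64 and 5.46 in controls (1.76 ± 0.27, adjusted p = 0.000679). Liver transcription factors went both ways, 4 of 23 higher (17.4%) and 6 lower (26.1%, against 11% of all genes), or 1 of each without control replicates 2 and 3. The pioneer factor foxa3 was 7.26, 6.84 and 7.15 in embryo 0.1 Gy livers and 8.73, 8.64 and 8.48 in controls (-1.54 ± 0.25, adjusted p = 0.00104, and -1.65 from control replicate 1, adjusted p = 0.033), and prox1a was lower (-1.27 ± 0.25, adjusted p = 0.00316). In cebpa, a regulator of hepatocyte metabolism, the embryo arrays ran from 8.92 to 10.71 and the controls from 10.73 to 11.56 (-1.49 ± 0.42, adjusted p = 0.0258), and the call was lost without control replicate 2 or 3 or embryo 0.1 Gy replicate 2 or 3 (differences of -1.95 to -1.06). A relative of the bile acid receptor, nr1h5, rose (1.3 ± 0.25, adjusted p = 0.00301). Of 42 chromatin and histone genes 6 were lower (14.3%, near the 11% of all genes) and 1 higher (2.38%), or 1 of each without control replicates 2 and 3. The gene that was higher was the linker histone histh1l1, at 9.46, 9.40 and 9.34 in irradiated fish and 7.54, 8.27 and 7.43 in controls (1.66 ± 0.27, adjusted p = 0.0011).

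Other large changes lay outside these lists. The transcript si:rp71-1g18.1 stood at 6.49, 6.94 and 6.71 in embryo 0.1 Gy livers and 5.19, 4.11 and 4.87 in controls (1.99 ± 0.34, adjusted p = 0.00135), and ftr67, of the finTRIM family, at 7.81, 7.72 and 8.0 against 6.77, 5.72 and 6.21 (1.61 ± 0.21, adjusted p = 0.000228). The non-coding si:dkey-238c7.13 rose (1.69 ± 0.34, adjusted p = 0.00386). Among decreases, kctd12.1 was 7.34, 6.03 and 6.26 in irradiated fish and 8.55, 8.92 and 8.39 in controls (-2.08 ± 0.28, adjusted p = 0.000326), and wu:fb51h06 was 4.1, 3.96 and 5.08 against 6.71, 6.66 and 6.11 (-2.11 ± 0.34, adjusted p = 0.00102). Shares near or below those of all genes (7.09% higher, 11% lower) were found in the lists of complement, coagulation and acute phase (1 of 30 higher, 0 lower), interferon and antigen presentation (1 of 19 higher, 0 lower), extracellular matrix (0 of 27 higher, 2 lower), xenobiotic metabolism (0 of 37 higher, 4 or 10.8% lower) and antioxidant and metal-binding genes (2 of 30 or 6.67% higher, 2 lower). Of the last, gclm, a subunit of the enzyme that starts glutathione synthesis, was 5.57, 5.83 and 5.84 in embryo 0.1 Gy livers and 6.74, 7.06 and 7.05 in controls (-1.21 ± 0.14, adjusted p = 9.1e-05). Among solute carriers and ion pumps 6 of 37 were lower (16.2%) and 0 higher, with the carrier slc25a55a at -1.66 ± 0.17 (adjusted p = 5.12e-05), and among amino acid, urea and one-carbon genes 8 of 45 were lower (17.8%) and 2 higher, with the folate enzyme mthfd2 at -1.51 ± 0.19 (adjusted p = 0.000166). The plot of gene lists gives the share of each list that passed.

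**Figure D3:**
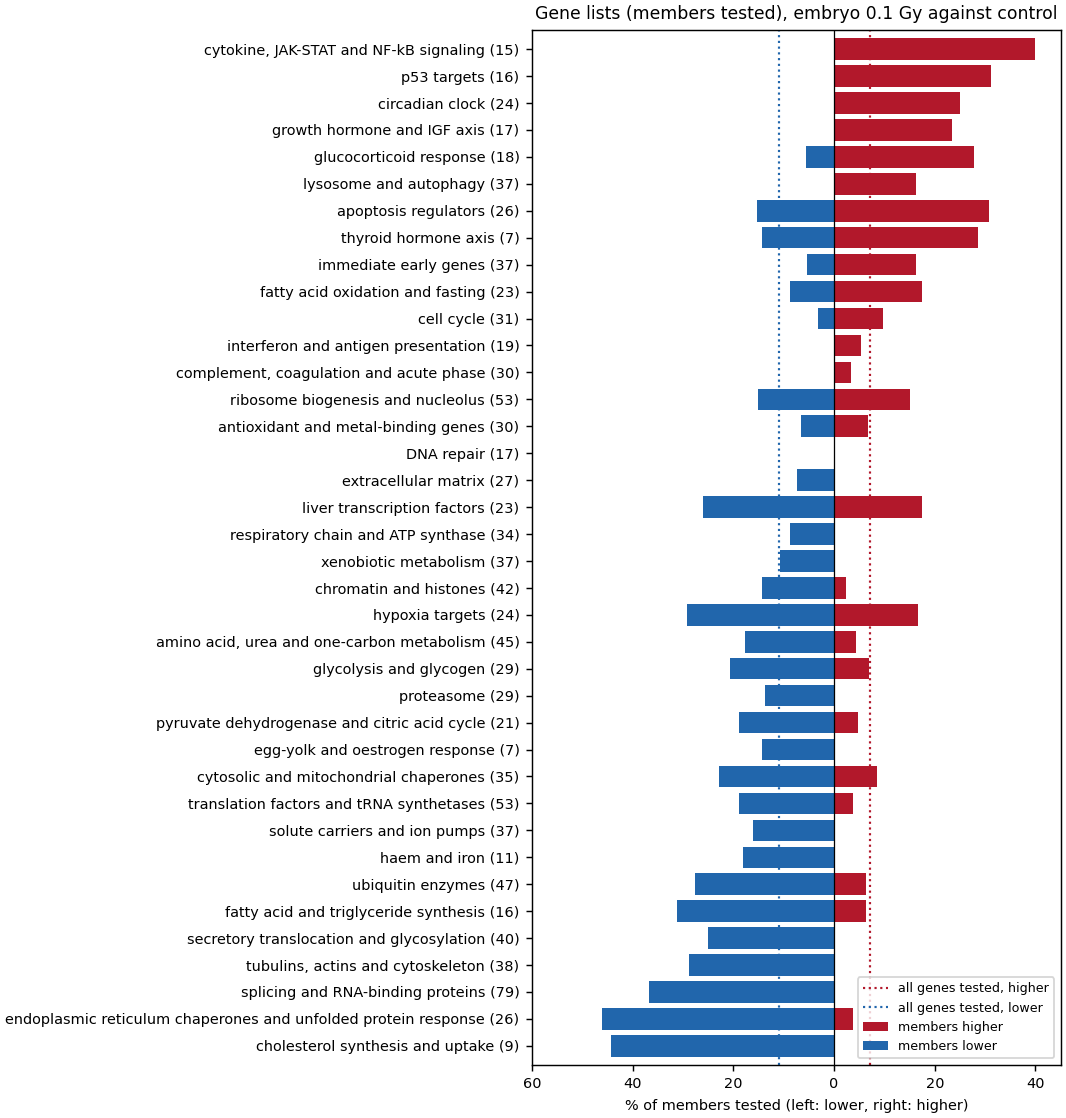
Percent of the tested members of each gene list that were higher (red, right) or lower (blue, left) in embryo 0.1 Gy than in control livers, with the number tested in brackets and dotted lines at the share of all genes tested (7.09% higher, 11% lower). Endoplasmic reticulum chaperones have the largest share lower (12 of 26) and cytokine signaling the largest share higher (6 of 15). In the DNA repair list, which does not hold ddb2, 0 of 17 passed. Some members of these lists were also chosen as long-term genes by the study from these same arrays. They include cisha, cishb and nfkbiaa of the cytokine list.

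Whole livers hold other cells, and in bulk RNA fewer cells of a type and less RNA per cell cannot be told apart. Summed levels of hepatocyte markers, on the log2 scale, were slightly lower in embryo 0.1 Gy arrays and did not overlap (17.85 to 17.87 in embryo 0.1 Gy and 17.88 to 17.93 in control arrays, 16 genes). All 8 of these genes that were tested had differences below 0, of which the lowest was -0.26. Among those left out by the filter, the means of apoeb (12.689 in embryo 0.1 Gy and 12.255 in control arrays), ambp and apoa2 were higher. Those of fabp10a, fgg, tfa, fgb and apobb.1 were lower. The summed levels overlapped for exocrine pancreas (14.51 to 16.67 and 14.77 to 16.23, 14 genes), erythrocytes (12.50 to 13.29 and 12.29 to 12.99, 12 genes) and muscle (9.31 to 10.17 and 9.05 to 9.47, 19 genes). Pancreatic transcripts such as the trypsin prss1 were thus high and variable in both groups, and 0 of the 14 pancreas, 10 erythrocyte and 14 muscle genes tested passed, or 0 at an unadjusted p under 0.05. Leukocyte markers did not overlap either, at 10.84 to 10.93 in embryo 0.1 Gy arrays and 9.96 to 10.75 in controls (11 genes). This sum weighs most the markers with the highest values, cd74a (10.08 in embryo 0.1 Gy arrays) and cd74b (8.54). Of 9 tested 1 passed, and 8 had differences above 0. The general leukocyte markers coro1a (0.05) and lcp1 (-0.02) differed little, as did ptprc (means of 4.25 in embryo 0.1 Gy and 4.22 in control arrays). The chemokine receptor cxcr4b passed, at 4.49, 4.11 and 4.77 against 3.58, 3.91 and 3.78 in controls (0.70 ± 0.23, adjusted p = 0.0496), and lost its call in 10 of the 15 fits (differences of 0.54 to 0.87), while cd74a and cd74b of antigen presentation had differences of 0.68 (adjusted p = 0.0934) and 0.76 (adjusted p = 0.0637). Male germ line markers also did not overlap (8.43 to 8.47 and 8.29 to 8.42, 15 genes), with 0 of 4 tested passing, or 0 at an unadjusted p under 0.05. The part of the markers that did not overlap in the other results, those of cytokine and NF-κB genes included, was not tested. Intestinal markers overlapped narrowly (13.95 to 14.18 and 14.17 to 14.43, 10 genes), and 0 of 7 passed (2 at an unadjusted p under 0.05). Their sum weighs most apoa4b.2 (13.10 in embryo 0.1 Gy arrays) and apoa4b.1 (12.89). Of the 7, 6 had differences below 0, with a median of -0.56. Among them were fabp1b.1 (-2.20, adjusted p = 0.0622), fabp2 (-1.50) and apoa4a (-1.36), while fabp6 was at 0.97 (adjusted p = 0.0527). Without control replicates 2 and 3 the median was -2.08. The part of intestinal markers in the other results was not tested. Of 9 biliary and keratin markers tested 1 passed, the keratin krt91, at 9.24, 8.50 and 9.69 in irradiated fish and 7.24, 7.17 and 7.52 in controls (1.83 ± 0.58, adjusted p = 0.042), a call lost in 11 of the 15 fits (differences of 1.56 to 2.15).

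The dose given to the embryos was examined with the embryo 1.0 Gy group. Between embryo 0.1 and embryo 1.0 Gy livers the count was 107 (1.24%), with 35 of them higher at 0.1 Gy and 72 lower, and an unadjusted p under 0.05 was found for 1194. By gene 70 of 5626 passed (1.24%). The count fell to 37 without embryo 0.1 Gy replicate 2 and reached 177 without control replicate 1. This comparison and that with control share the embryo 0.1 Gy arrays, and the named genes were chosen for passing in both. For mycb the 0.1 Gy arrays read 9.90, 10.29 and 10.46, far above the embryo 1.0 Gy arrays at 5.95, 6.53 and 7.14, which lay within the range of the controls (0.1 minus 1.0 Gy 3.68 ± 0.74, adjusted p = 0.0264). The Wnt pathway activator gbp, which binds glycogen synthase kinase, was 8.2, 9.98 and 8.68 at 0.1 Gy and 6.38, 6.68 and 6.36 at 1.0 Gy (2.48 ± 0.47, adjusted p = 0.0214), against 7.27, 6.26 and 8.2 in controls. The glycogen-targeting subunit ppp1r3ca was 11.44, 10.56 and 10.59 at 0.1 Gy and 9.0, 8.77 and 7.93 at 1.0 Gy (2.29 ± 0.28, adjusted p = 0.00196), with the controls in between at 9.77, 9.48 and 10.19.

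The differences of ppp1r3ca from control were 1.05 ± 0.28 at 0.1 Gy (adjusted p = 0.0175) and -1.25 ± 0.28 at 1.0 Gy (adjusted p = 0.00947), from the same 3 controls. The call against control at 0.1 Gy was lost without control replicate 2 or embryo 0.1 Gy replicate 1 (differences of 0.76 to 1.23 over the 15 fits). Between the embryo doses, further genes higher at 0.1 than at 1.0 Gy were igfbp1b (2.1 ± 0.45, adjusted p = 0.0375), the NF-κB inhibitor nfkbiab (2.04 ± 0.39, adjusted p = 0.0227), ppp1r15a (1.96 ± 0.39, adjusted p = 0.0264) and zgc:162730 (1.82 ± 0.31, adjusted p = 0.012). In embryo 1.0 Gy livers ppp1r15a stood at 5.96, 5.96 and 6.10. Lower at 0.1 Gy were hspa5, at 8.84, 8.93 and 9.73 in embryo 1.0 Gy livers (0.1 minus 1.0 Gy -1.88 ± 0.35, adjusted p = 0.0203), g3bp1, at 8.72, 8.87 and 8.86 (-1.80 ± 0.27, adjusted p = 0.00554), and wu:fb51h06 (-1.73 ± 0.34, adjusted p = 0.0258). In hspa5 and g3bp1 the 1.0 Gy arrays thus lay between the 0.1 Gy arrays and the controls. Of these 10 genes, ppp1r3ca and g3bp1 kept the dose call in all 15 fits, zgc:162730 lost it in 2, hspa5 in 3, gbp and nfkbiab in 4, wu:fb51h06 in 5, mycb and ppp1r15a in 6 and igfbp1b in 8. All 10 had it without control replicates 2 and 3. Other genes with large changes passed between doses too, among them nfkbiaa (1.37, adjusted p = 0.0214), actb1 (-1.32, adjusted p = 0.00385) and tubb2b (-0.86, adjusted p = 0.0352). For igfbp1a the dose difference was 2.12 but did not pass (adjusted p = 0.149). Differences were smaller, and did not pass, in hmgcs1, thraa and klf9. In hmgcs1 the embryo 1.0 Gy arrays read 5.71, 5.56 and 5.88 (0.1 minus 1.0 Gy 0.14, adjusted p = 0.816), in thraa 7.24, 7.24 and 6.93 (0.40, adjusted p = 0.289) and in klf9 9.40, 10.76 and 9.70 (0.45, adjusted p = 0.713).

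**Figure D4:**
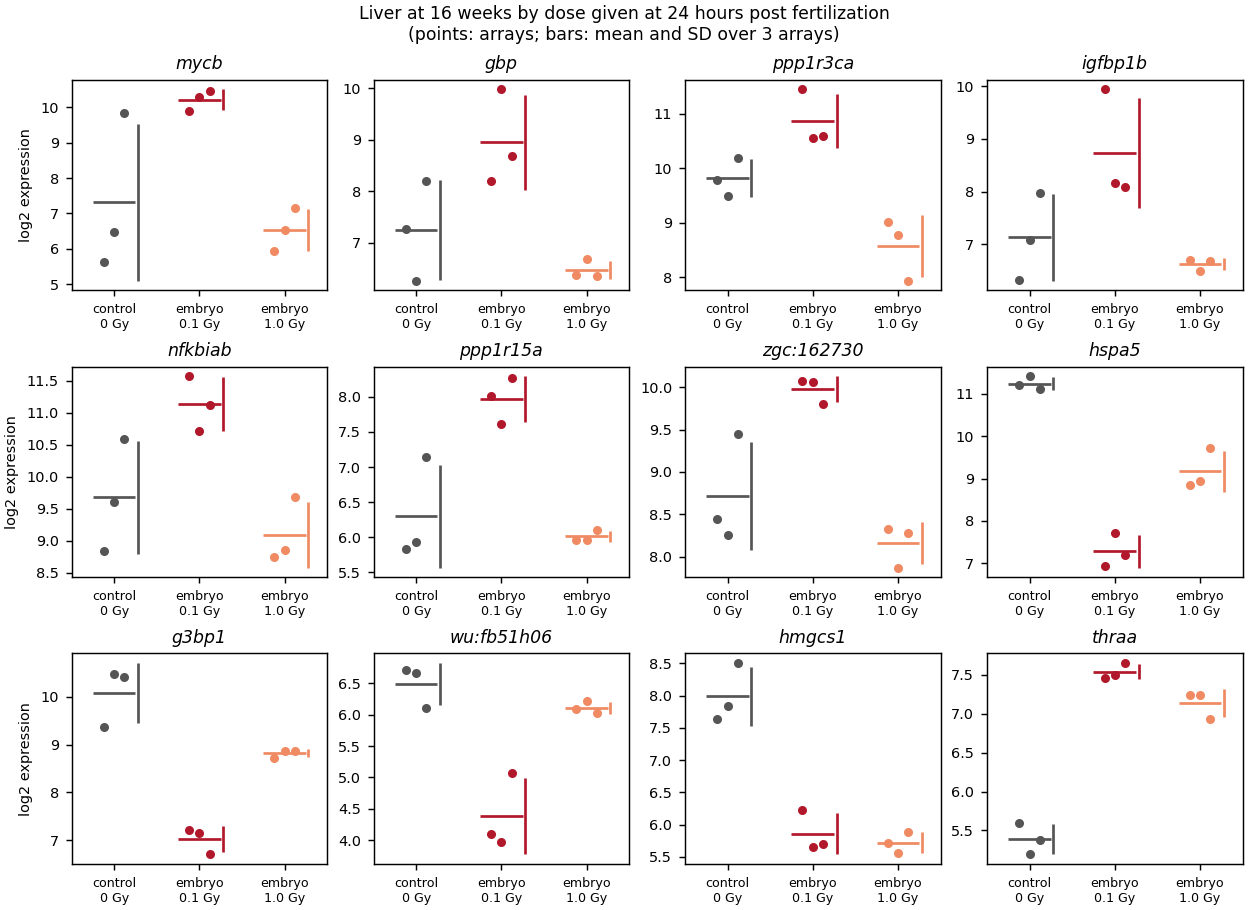
Log2 expression in liver at 16 weeks (vertical) of 12 genes in control, embryo 0.1 Gy and embryo 1.0 Gy fish (horizontal), with points for arrays, horizontal bars for the mean and vertical bars for the SD over 3 arrays. In the first 7 panels the 0.1 Gy mean is the highest of the 3, in hspa5 and g3bp1 the 1.0 Gy mean is in between, and hmgcs1 and thraa have 0.1 Gy and 1.0 Gy arrays side by side.

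Timing was examined at the same dose with adult 0.1 Gy livers, taken 4 hours after irradiation. The adult 0.1 Gy fish came from the cohort of the controls. Time since exposure, stage at exposure and cohort therefore cannot be told apart here. The count was 1792 (20.8%), with 1124 higher in embryo 0.1 Gy than in adult 0.1 Gy livers and 668 lower. It was 1103 without adult 0.1 Gy replicate 3, and 1121 without the 4 arrays with conflicting source names, which include adult 0.1 Gy replicates 1 and 2. The genes named are those with the largest difference that also passed against control, and both comparisons use the embryo 0.1 Gy arrays. All 6 were lower in the embryo group. The factor hif1al stood at 6.45, 6.78 and 6.17 in embryo 0.1 Gy livers and 9.42, 9.58 and 9.89 in adult 0.1 Gy livers (-3.16 ± 0.28, adjusted p = 1.89e-05), ivns1abpb, an actin-binding Kelch protein, at 6.67, 7.96 and 6.54 against 9.78, 10.15 and 10.34 (-3.03 ± 0.32, adjusted p = 5.84e-05), and the kinase mknk2b, which phosphorylates the cap-binding factor, at 9.34, 9.63 and 9.47 against 11.56, 11.62 and 12.12 (-2.29 ± 0.25, adjusted p = 6.85e-05). These 3 were higher than control in the embryo group. For ivns1abpb that call was lost without control replicate 1 or 2 or embryo 0.1 Gy replicate 2 (differences of 0.70 to 1.41 over the 15 fits). From control replicate 1 alone the difference was 1.26 for ivns1abpb and 1.06 for mknk2b. The oestrogen receptor esr2b was 6.45, 6.62 and 5.92 in embryo 0.1 Gy livers and 9.22, 8.99 and 9.33 in adult 0.1 Gy livers (-2.85 ± 0.27, adjusted p = 2.85e-05), with the controls in between at 7.46, 8.36 and 7.39. The means of stk40, a serine/threonine kinase (-2.27 ± 0.35, adjusted p = 0.000601) had the same order, with single arrays of control and adult 0.1 Gy livers overlapping. All 6 calls against adult 0.1 Gy livers were kept in the 15 fits, and igfbp1b differed by -2.29 ± 0.45 (adjusted p = 0.00273).

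Because 2 of the 3 controls carry conflicting entries, each was also set against the embryo 0.1 Gy mean by itself, with no test. For the 574 probe sets that rose the median difference was 0.53 from control replicate 1, 0.74 from control replicate 2 and 0.70 from control replicate 3, and for the 900 that fell it was -0.50, -0.84 and -0.87. Because the 1474 were chosen on the mean of these same controls, their sign against each one is nearly fixed. Those that rose and those that fell both had the smallest median difference from control replicate 1. The plot of these differences shows hspa5 at almost the same distance from control replicate 1 (-3.92) as from the mean of all controls (-3.95), while hspa4a was at -0.55 and -1.97 and p4ha1b at -0.91 and -2.19. The other way round, mycb was at 4.59 from control replicate 1 and 2.90 from the mean.

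**Figure D5:**
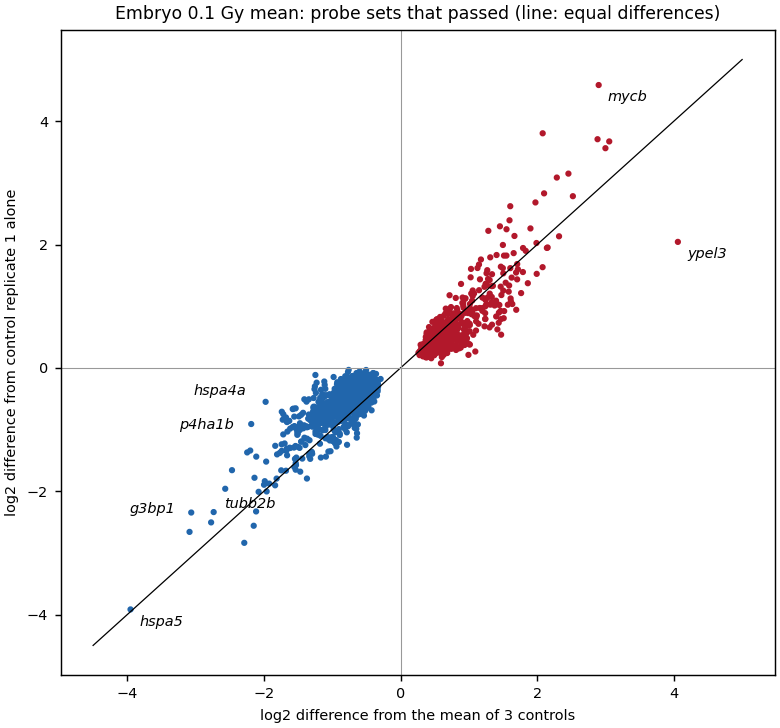
Log2 difference of the embryo 0.1 Gy mean from control replicate 1 alone (vertical) against that from the mean of the 3 controls (horizontal), for the 1474 probe sets that passed, higher in red and lower in blue, with the line of equal differences. In this plot hspa4a (-0.55 against -1.97) and ypel3 (2.04 against 4.06) lie far from the line.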

How the data were processed

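RNA of pooled zebrafish livers was hybridised to GeneChip Zebrafish Genome arrays. The deposited log2 values were made by the authors with quantile normalization and robust multi-array averaging in R, so they give relative levels of a probe set between arrays and no order between probe sets. The number of arrays limits the precision: with 3 against 3 an exact two-sided permutation test cannot go below 0.1, so p values are those of limma 3.58.1 (R 4.3.3), fitted to 5 group means over all 15 arrays and adjusted by Benjamini-Hochberg. Quality control by the authors used affyPLM. Of 15617 probe sets 115 manufacturer controls were left out. Probe sets were named by the platform annotation and current gene symbols: 10795 have 1 symbol, 135 several and 4572 none.

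A call needs an adjusted p under 0.05 in the F-test and in the contrast. Genes are named if among the 20 largest increases or decreases with groups that do not overlap, among the 4 largest called members of a list, largest by dose (10) or stage (6), or in the study's long-term list. The members and lists were chosen with earlier results of these data known. The fit was tested on simulated data. Alternatives were other filters, scalings, variance estimates, a replicate block, and leaving out arrays. The replicate numbers do not pair the arrays, with correlations of -0.197, -0.0656 and -0.291 between same-numbered deviations.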

Additional observations from a re-analysis of the deposited data

Results flagged for a closer look

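The following genes had a difference from control that itself differed between doses or between embryo 0.1 Gy and adult 0.1 Gy livers. The difference was taken from the contrast of the 2 irradiated groups (limma, adjusted p under 0.05), which also differ by cohort. No control array enters that difference, but all 5 groups, controls included, enter its standard error and the F-test. Between embryo 0.1 Gy and embryo 1.0 Gy livers mycb differed by 3.68, gbp by 2.48, ppp1r3ca by 2.29, igfbp1b by 2.1, nfkbiab by 2.04, ppp1r15a by 1.96 and zgc:162730 by 1.82 on the log2 scale, all higher at 0.1 Gy. Lower at 0.1 Gy were hspa5 at -1.88, g3bp1 at -1.80 and wu:fb51h06 at -1.73. Between embryo 0.1 Gy and adult 0.1 Gy livers hif1al differed by -3.16, ivns1abpb by -3.03, esr2b by -2.85, mknk2b by -2.29, igfbp1b by -2.29 and stk40 by -2.27. These genes were picked for their size among many. Leaving out 1 array at a time ended the call between doses in at least 1 of the 15 fits for 8 of the 10 genes. Those that kept it were ppp1r3ca and g3bp1. No call between embryo 0.1 Gy and adult 0.1 Gy livers was lost in these fits.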

How the results depend on the processing

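All values here are counts of probe sets that passed in embryo 0.1 Gy minus control (higher and lower), unless another comparison is named. No named gene with a call turned its direction in these settings. Medians of some gene lists did change sign without control replicates 2 and 3. That of translation factors and tRNA synthetases went from -0.15 to 0.02. An interquartile range of at least 0.5 left 596 (235 and 361), with 1065 against adult 0.1 Gy, and the range over the 6 arrays gave 1189 against adult 0.1 Gy. A fit to the 6 arrays alone gave 966 (367 and 599), and array weights 3008 (1259 and 1749), with 355 against embryo 1.0 Gy. Without control replicates 2 and 3, 282 passed (99 and 183), and without all 4 arrays with conflicting source names 269 (101 and 168), with 1121 against adult 0.1 Gy. Leaving out 1 array at a time gave 835 to 1803 (291 to 609 higher, 544 to 1194 lower), 37 to 177 against embryo 1.0 Gy and 1103 to 2008 against adult 0.1 Gy. The cause of these shifts was not tested. The counts of list members without control replicates 2 and 3 and the differences from each control were chosen after seeing the data.

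With the replicate number as a block 1271 passed (486 and 785), and 66 against embryo 1.0 Gy. The numbers do not pair the arrays. Of 148 named genes, 9 lost a call with the block, 30 with the 6 arrays alone and 89 without control replicates 2 and 3. Other probe sets of named genes kept the call in 23 of 33 cases. The share of promoters with a motif was not run.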
